A study of Homo sapiens with 40 samples.

Results

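The nuclear genes for the subunits of respiratory complexes III and IV, ATP synthase (complex V) and cytochrome c were described in 40 RNA-seq libraries of HEK293A cells. They were chosen by name: every protein-coding gene whose symbol starts with UQCR, COX4, COX5, COX6, COX7, COX8 or ATP5, plus CYC1 and CYCS. The rule found 48 of the 58395 listed genes, of which 10 belonged to complex III, 17 to complex IV and 20 to complex V, and 1 was cytochrome c. Of these, 44 had enough reads to be tested, and 39 reached a mean of 10 CPM, which are read counts scaled to library size, over the libraries. HEK293A is a human embryonic kidney line, and it was compared as the parental wild type (WT) and as 1 derived line with a CRISPR/Cas9 knockout of PARP1 (PARP1-KO), a nuclear enzyme of DNA repair. Each line was left untreated or received 0.1% DMSO, topotecan (Tpc, a poison of DNA topoisomerase TOP1), OL9-119 (an inhibitor of the repair enzyme TDP1) or both compounds, with 4 libraries in each of the 10 groups. Tpc and OL9-119 cells also received the 0.1% DMSO, and untreated cells did not, whereas for the combination the methods name DMSO and the labels give no percentage. Tpc was given at 100 nM to WT and at 50 nM to PARP1-KO cells, OL9-119 at 5 µM to both lines, and RNA was taken after 5 to 5.5 h.

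Complex III passes electrons from ubiquinol to cytochrome c and pumps protons across the inner mitochondrial membrane. Cytochrome c carries the electrons to complex IV, cytochrome c oxidase, which reduces oxygen to water and pumps more protons. Complex V lets the protons flow back and uses their energy to make ATP. The catalytic subunits of complex IV, cytochrome b of complex III and the proton channel subunit a of complex V are made inside the mitochondrion from its own genome, whereas the subunits described here are made from nuclear genes and imported, so both genomes have to supply each complex. HEK293 lines grow with strong glycolysis and also respire.

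PARP1 itself was measured at 737 to 887 CPM in the WT libraries and at 30.4 to 46.6 CPM in the PARP1-KO libraries, so the labels and the targeted gene went together, although some PARP1 reads remained. The sample characteristics call the line a knockdown and the titles a knockout. Among markers of the line, VIM, NEFL and CDH2 were detected in each library and PAX2 and INA were near 0 in some. Markers of other cell types were low, with PTPRC, CD3E, ALB and MYH7 not above 1.20 CPM and COL1A1 at 9.10 to 43.0 CPM, and 1 of the 8 such markers was called lower in PARP1-KO cells when untreated, with DMSO and with OL9-119. The libraries held 3455043 to 20379777 counts. Because the comparison rests on 1 knockout line against its parent, PARP1 loss and other differences between the lines cannot be told apart. The p-values measure the spread between these libraries, which the labels call biological replicates and part of the methods technical. In bulk RNA, fewer cells and less RNA per cell cannot be told apart.

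Before the results, 3 WT libraries have to be named, because they stood apart in the members' summed level. DMSO replicate 3 reached a sum of 7802 CPM, untreated replicate 1 reached 7442 and untreated replicate 3 reached 6354, whereas the other 17 WT libraries lay between 4011 and 5856 CPM and the PARP1-KO libraries between 3840 and 5041 CPM. The same 3 libraries were the most tilted towards short transcripts: the slope of log2 level on log2 transcript length over all other well-expressed genes was -0.345, -0.265 and -0.166 in them, -0.14 to 0.0793 in the other WT libraries and -0.0244 to 0.118 in PARP1-KO libraries. At a common depth of 3455043 counts they were expected to hold 15510, 16922 and 15580 genes, where the other WT libraries held 16194 to 20619. The members are short, with a median transcript of 916 bases against 3573 bases for all genes at 10 CPM or more. How much of each result came from this tilt was not tested, and counts and sums without these libraries are given beside the main results.

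**Figure D1:**
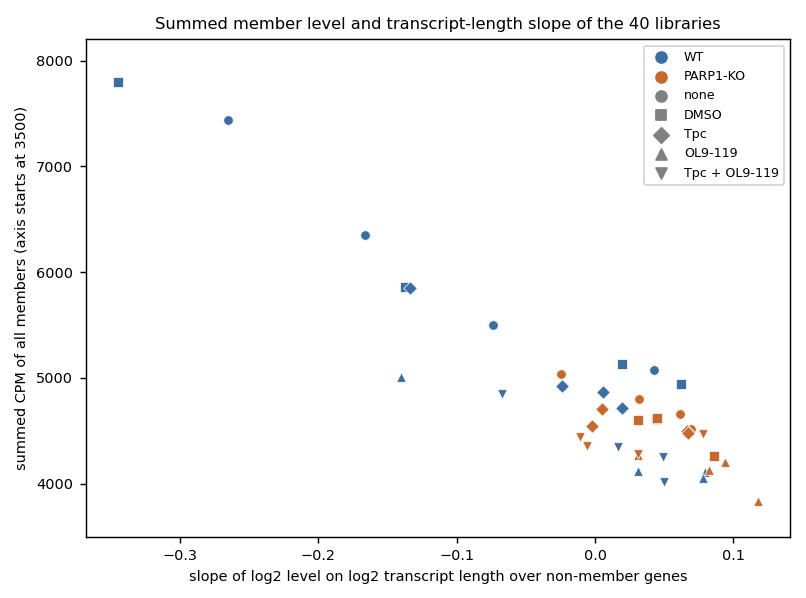
Summed CPM of the 48 members (vertical axis, not starting at 0) against the slope of log2 level on log2 transcript length over genes that are not members (horizontal axis), with 1 point per library, coloured by genotype and shaped by treatment. The 3 WT libraries at 7802, 7442 and 6354 CPM had the most negative slopes, and the PARP1-KO libraries lay at 3840 to 5041 CPM.

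Levels were first compared between genes per transcript length, as TPM (counts scaled by transcript length and library size) in untreated WT cells. In complex III the hinge protein UQCRH, which helps cytochrome c to dock, was highest at 882 ± 135 TPM (SD, n = 4) and UQCR11, a small accessory subunit, was lowest at 40.1 ± 10.3 TPM. The near-identical copy UQCRHL can share reads with UQCRH, so both are uncertain. In complex IV the small subunits COX7C at 782 ± 98.4 TPM and COX7A2 at 703 ± 115.2 TPM led, with spreads that overlapped, and the complex III to IV supercomplex factor COX7A2L was at 76.6 ± 4.85 TPM. In complex V the catalytic β subunit ATP5F1B was at 988 ± 55.5 TPM and the catalytic partner α, ATP5F1A, at 130 ± 9.66 TPM. Cytochrome c, CYCS, was at 133 ± 26.8 TPM. The annotated canonical transcripts of ATP5F1A, UQCRB and CYCS are long (5761, 8459 and 5432 bases), which lowers their TPM if the cells use a shorter form.

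The line used the ubiquitous isoforms. COX4I1, the regulatory subunit form of most tissues, was at 525 ± 74.4 TPM, and its lung form COX4I2 had 0 counts in the 40 libraries together. COX7A1, the form of heart and skeletal muscle, also had 0 counts, and for both genes 3 counts of the 440871674 in total set an upper limit of 0.0068 CPM (counting error only). The muscle form COX6A2 had 4 counts, the testis forms COX7B2 and COX8C had 2 and 37 counts, and COX6B2, another testis form, was at 1.19 ± 0.81 TPM. In complex V the read-through gene ATP5MF-PTCD1 had 68 counts, and its exons overlap PTCD1 over 83.3% of their bases.

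**Figure D2:**
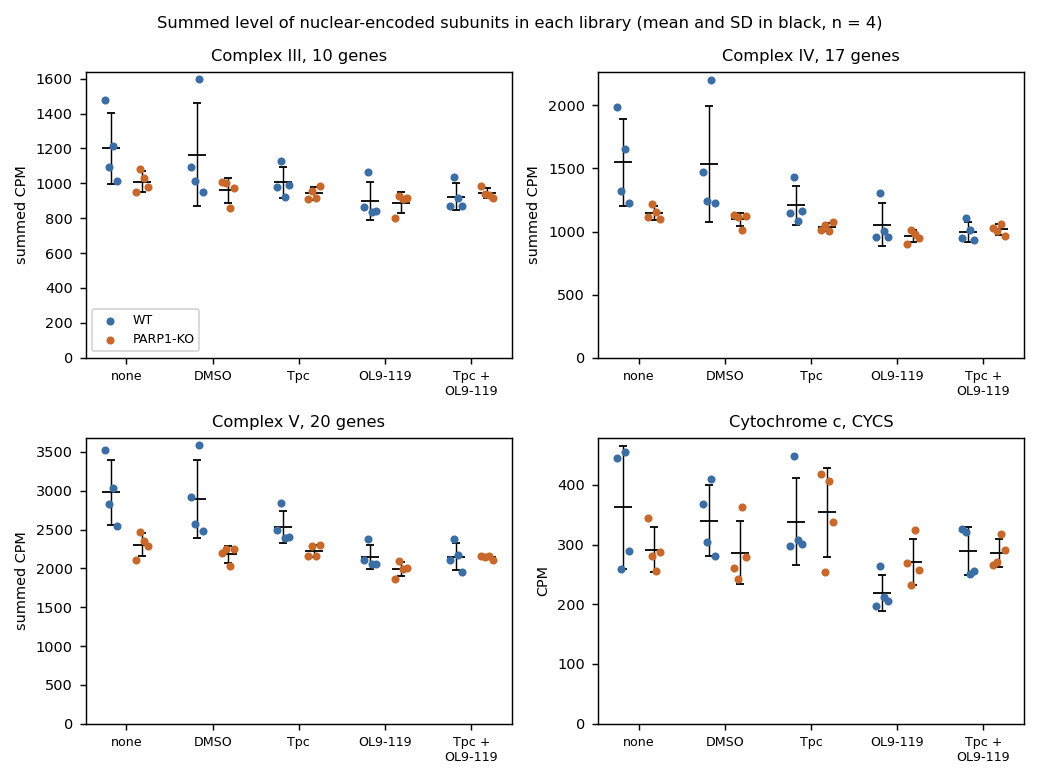
Summed CPM of complex III (10 genes), complex IV (17 genes) and complex V (20 genes) and CPM of CYCS in each library (points), by treatment and genotype, with the mean and SD of 4 libraries in black. WT sums are highest and most spread in untreated and DMSO cells, and the genotypes lie close together with both compounds.

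The first comparison was PARP1-KO against WT within each treatment, and it asks how the lines differ with and without the drugs. Untreated, DMSO-treated and Tpc-treated PARP1-KO cells had a lower summed level than WT, and the lines were close after OL9-119, alone or combined. The sum over all members in PARP1-KO cells was 78% of that in WT for untreated cells (4754 ± 224 against 6093 ± 1045 CPM) and 76.3% with DMSO (4524 ± 176 against 5933 ± 1307 CPM). It was 89.6% after Tpc and 95.1% after OL9-119, and the combination gave 4388 ± 88.8 against 4363 ± 350 CPM. The 4 PARP1-KO libraries lay below the 4 WT libraries in the first 3 of these treatments, and they overlapped in the last 2. Without the 3 tilted WT libraries the PARP1-KO sum was 89.9% of WT in untreated cells (2 WT libraries left) and 85.2% with DMSO (3 left), still without overlap. The PARP1-KO means ranged from 4111 to 4754 CPM over the treatments and the WT means from 4324 to 6093 CPM.

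By complex, the PARP1-KO sum with DMSO was 82.4% of WT for complex III, 71.4% for complex IV and 75.4% for complex V, and in untreated cells it was 84.1%, 74.1% and 77.3%. In both treatments the genotypes overlapped for complex III and did not for complexes IV and V. Without the tilted libraries the shares were 94.1%, 83.5% and 82.1% with DMSO and 95.7%, 89.9% and 85.9% in untreated cells for complexes III, IV and V. Whether the complexes differ from each other was not tested. CYCS was at 84.1% of WT with DMSO and 80.5% in untreated cells, with overlapping groups. Without the tilted libraries it was at 90.2% with DMSO and 106% in untreated cells, again with overlap.

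Gene by gene, edgeR's quasi-likelihood test with Benjamini-Hochberg adjustment over 28922 genes (called at an adjusted p below 0.01) found 19 of 44 members lower with DMSO, or 43.2%, and 0 higher. Of all genes tested, 5.75% were called lower there and 6.67% higher, and of the 10523 genes at 10 CPM or more, 14.3% were. In untreated cells 17 members (38.6%) were lower against 5.74% of all genes, and the genes at 10 CPM or more gave 14.1%. With Tpc 5 members were lower, or 11.4% against 4.34% of all genes, and 1 was higher against 4.17%. With OL9-119 4 members were lower, or 9.09% against 4.83%, and with both compounds 3 were lower, or 6.82% against 3.71%. Among genes at 10 CPM or more these last 3 backgrounds were 10.7%, 11.9% and 8.95%, so the members' shares were near the background there.

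The median log2 fold change of the 39 better expressed members was -0.43 in untreated, -0.50 in DMSO-treated and -0.23 in Tpc-treated cells, and -0.07 after OL9-119 and 0.00 after the combination, where the medians of all genes at 10 CPM or more lay between -0.0039 and 0.02. Without overlap between the 4 and 4 libraries, 17 members were lower with DMSO (7.76% of all genes) and 15 in untreated cells (8.37%). Such members numbered 12 with Tpc (9.3%), 8 with OL9-119 (10.9%) and 3 with both compounds (7.29%). The counts depended on the libraries that stood apart. Without WT DMSO replicate 3 the count with DMSO was 7 and the median -0.30, and without untreated WT replicate 1 the untreated count was 8 and the median -0.33. With the 3 tilted WT libraries left out together, 9 members were lower with DMSO (6.04% of all genes) and 5 in untreated cells (4.44% of all genes). In the same fit 10 were lower with Tpc, 7 with OL9-119 and 3 with both compounds. For these 3 treatments, and for the fits that left out 1 library, the share of all genes is not given. Those counts therefore cannot be set against a background. These left-out fits were chosen after the data were seen.

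**Figure D3:**
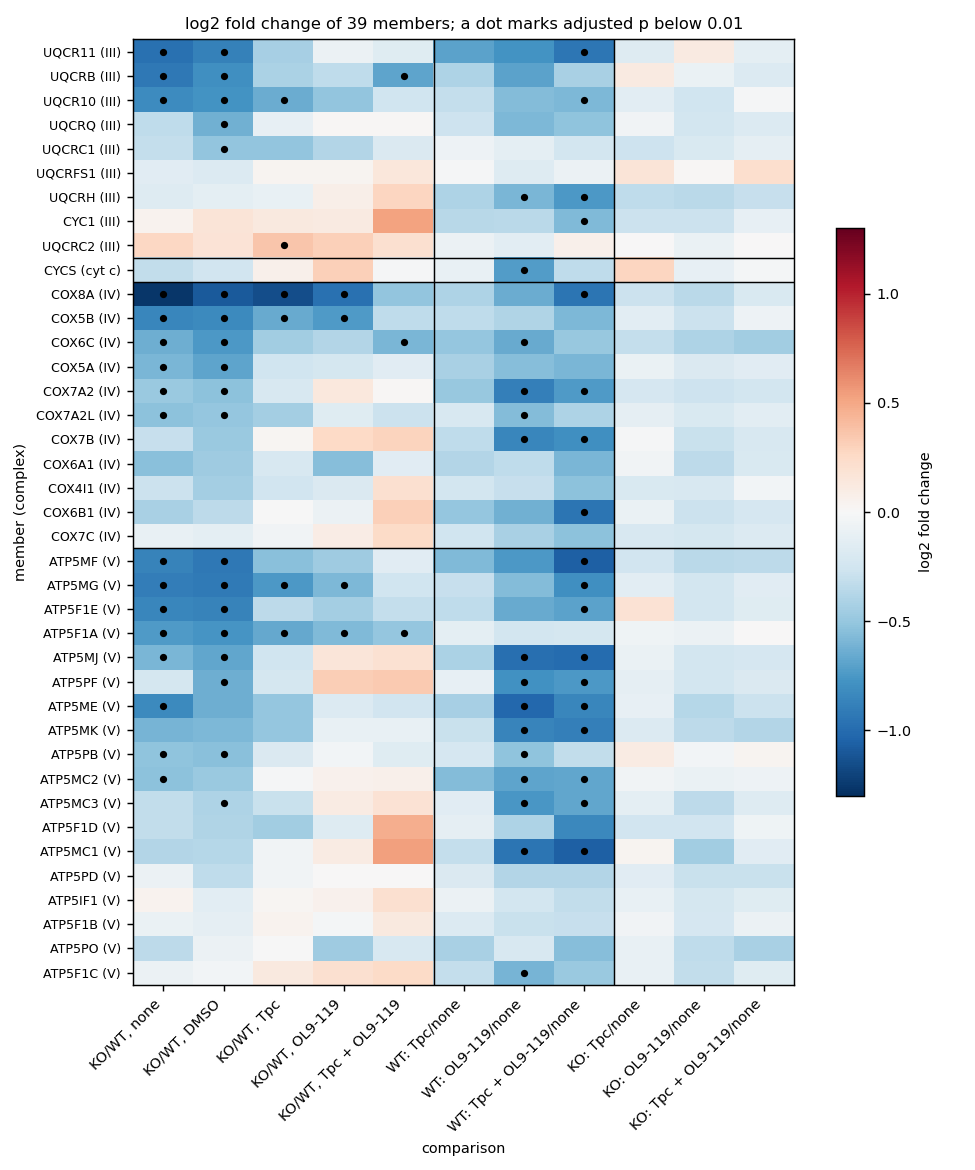
Log2 fold change (colour) of the 39 members with a mean of 10 CPM or more (rows, grouped by complex) in 5 comparisons of PARP1-KO with WT and 3 comparisons of each genotype's treated with its untreated cells (columns), with a dot at an adjusted p below 0.01 (edgeR). ATP5F1A carries a dot in each of the 5 genotype columns, and the PARP1-KO treatment columns carry 0 dots.

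Of the 44 members, 1 was called lower in PARP1-KO cells in 5 of 5 treatments, 3 in 4 treatments, 3 in 3 treatments, 8 in 2 and 6 in 1, and 23 in 0. The treatments share no libraries, but they share the 2 lines, so they repeat the same contrast of lines. ATP5F1A, which forms the catalytic head of ATP synthase together with the β subunit, was the member called lower throughout. Its CPM in untreated WT libraries were 412, 373, 353 and 349, and in untreated PARP1-KO libraries 218, 226, 227 and 219. With DMSO they were 394, 318, 399 and 315 in WT and 213, 214, 183 and 225 in PARP1-KO cells. With both compounds they were 315, 328, 319 and 303 in WT and 226, 236, 211 and 220 in PARP1-KO cells. Over the 20 WT libraries it ranged from 301 to 412 CPM and over the 20 PARP1-KO libraries from 183 to 236 CPM, with no overlap. It was the 1 member with that property, which 1.56% of all genes tested had in the lower direction.

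The log2 fold change of ATP5F1A was -0.74 ± 0.10 (SE, adjusted p = 2.08e-08, edgeR) in untreated cells, -0.77 ± 0.10 (adjusted p = 6.05e-09) with DMSO and -0.67 ± 0.10 (adjusted p = 4.01e-07) with Tpc. It was -0.58 ± 0.10 (adjusted p = 6.11e-06) with OL9-119 and -0.50 ± 0.10 (adjusted p = 0.000104) with both compounds. With offsets for transcript length the DMSO value was -1.003, and without the 3 tilted WT libraries it was -0.72. The β and γ subunits, which belong to the same catalytic part, did not pass the test with DMSO. The β subunit ATP5F1B had a log2 fold change of -0.12 with DMSO (interval of 2 SE from -0.31 to 0.06) and 0.13 with both compounds, and the central stalk subunit γ, ATP5F1C, had -0.03 with DMSO (-0.31 to 0.25). The DMSO CPM of ATP5F1B were 861, 802, 914 and 786 in WT and 794, 799, 705 and 792 in PARP1-KO cells, which overlapped.

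The other 3 members called lower in 4 treatments were ATP5MG, subunit g of the membrane part of ATP synthase, and COX8A and COX5B of complex IV, and none of these 3 passed the test with both compounds. COX8A is a small membrane subunit, and COX5B binds zinc on the matrix side. COX8A was at 57.7, 42.3, 59.4 and 41.1 CPM in untreated WT and at 18.5, 23.3, 20.1 and 21.2 CPM in untreated PARP1-KO libraries. These groups did not overlap, and its log2 fold change of -1.27 ± 0.20 (adjusted p = 2.38e-06, edgeR) was the lowest of the called members there. With both compounds it was at 20.6, 19.8, 32.5 and 32.1 CPM in WT and 23.4, 17.02, 16.5 and 15.98 CPM in PARP1-KO libraries, which overlapped (-0.51, adjusted p = 0.0954, edgeR).

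ATP5MG was at 171, 132, 147 and 112 CPM in untreated WT and 73.2, 80.6, 78.8 and 68.0 CPM in untreated PARP1-KO libraries, with no overlap and a log2 fold change of -0.90 ± 0.14 (adjusted p = 2.33e-06, edgeR). COX5B was at 164, 105, 135 and 92.5 CPM in WT and 63.4, 71.9, 72.9 and 67.4 CPM in PARP1-KO libraries, again without overlap (-0.85 ± 0.18, adjusted p = 0.000326, edgeR). In both genes, and in COX8A, untreated WT replicates 1 and 3, which are tilted libraries, were the highest of the untreated WT libraries. Without the 3 tilted libraries the DMSO values were -0.73 for ATP5MG and -0.81 for COX8A, which were still called, and -0.49 for COX5B, which was not. ATP5F1A, COX8A and ATP5MG were called with DMSO under each of 13 settings and each of 8 fits that left out 1 library.

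**Figure D4:**
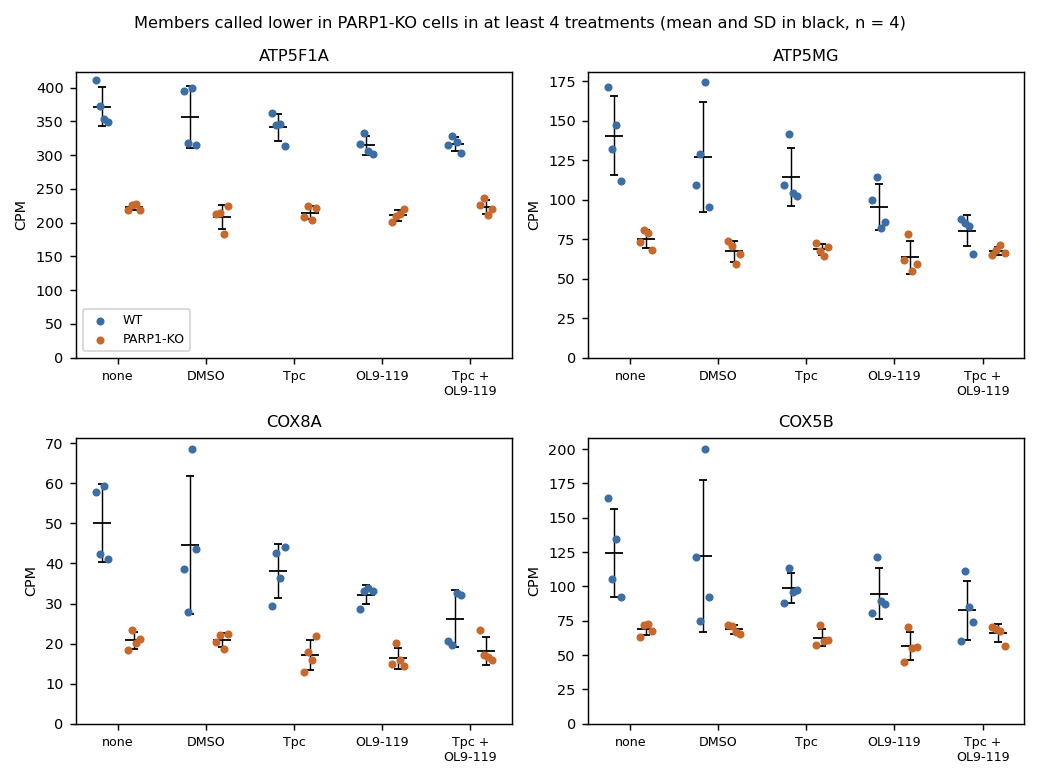
CPM of ATP5F1A, ATP5MG, COX8A and COX5B in each library (points), by treatment and genotype, with the mean and SD of 4 libraries in black, each axis starting at 0. The genotypes are apart in all 5 treatments for ATP5F1A and overlap with both compounds for the other 3 genes.

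As for position, ATP5F1A (ENSG00000152234) lies on the minus strand at chr18:46080248-46104334 (hg38, GENCODE 44), and the 156 genes of chromosome 18 at 10 CPM or more gave a DMSO median of 0.03. COX8A (ENSG00000176340, plus strand, chr11:63974620-63976543) and ATP5MG (ENSG00000167283, plus strand, chr11:118401346-118433278) lie on chromosome 11. There the 607 genes had a median of -0.50 with DMSO, -0.51 in untreated cells and -0.44 with both compounds, and 263 of them were called lower with DMSO. COX5B (ENSG00000135940, plus strand, chr2:97646062-97648383) lies on chromosome 2, whose genes had a median of -0.09. On chromosome 4, where ATP5ME lies, the median over 386 genes was -0.43. The part of these chromosome-wide differences in the members was not tested. The exons of COX8A overlap those of a long noncoding RNA on the same strand over 35.4% of their bases, so its counts are uncertain, and ATP5F1A and COX5B overlap no other gene.

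The promoters of these 4 members are shown because the genes were the most often lower in the PARP1-KO line. The windows are from RefSeq (GRCh38.p14), run from 250 bases before to 50 bases after the annotated start, are written in the direction of transcription and lie at chr18:46098247-46098546 (minus), chr11:118401356-118401655, chr2:97645812-97646111 and chr11:63974370-63974669 (plus). Capitals mark matches, on either strand, to the letters GCGCATGC (core of the NRF1 site), CCGGAAGT (core of ETS and GABP sites) or AAGATGGCG (core of the YY1 site), which do not overlap in these windows.
ATP5F1A promoter: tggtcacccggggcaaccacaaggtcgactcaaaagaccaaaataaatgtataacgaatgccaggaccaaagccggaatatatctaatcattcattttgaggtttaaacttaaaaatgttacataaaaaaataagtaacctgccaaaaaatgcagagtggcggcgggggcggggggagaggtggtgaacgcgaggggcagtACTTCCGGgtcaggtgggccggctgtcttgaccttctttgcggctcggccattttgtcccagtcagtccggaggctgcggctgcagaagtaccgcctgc
ATP5MG promoter: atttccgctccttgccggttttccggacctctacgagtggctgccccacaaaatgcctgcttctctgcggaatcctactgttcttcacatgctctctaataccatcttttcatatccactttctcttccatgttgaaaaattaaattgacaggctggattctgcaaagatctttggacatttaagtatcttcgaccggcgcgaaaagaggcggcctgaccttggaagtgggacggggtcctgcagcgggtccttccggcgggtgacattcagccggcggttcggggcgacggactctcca
COX5B promoter: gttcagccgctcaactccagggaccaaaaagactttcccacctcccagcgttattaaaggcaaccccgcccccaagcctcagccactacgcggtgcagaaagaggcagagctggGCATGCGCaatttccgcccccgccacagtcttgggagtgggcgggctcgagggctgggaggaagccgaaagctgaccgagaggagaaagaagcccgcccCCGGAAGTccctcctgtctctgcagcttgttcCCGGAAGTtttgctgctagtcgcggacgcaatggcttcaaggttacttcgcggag
COX8A promoter: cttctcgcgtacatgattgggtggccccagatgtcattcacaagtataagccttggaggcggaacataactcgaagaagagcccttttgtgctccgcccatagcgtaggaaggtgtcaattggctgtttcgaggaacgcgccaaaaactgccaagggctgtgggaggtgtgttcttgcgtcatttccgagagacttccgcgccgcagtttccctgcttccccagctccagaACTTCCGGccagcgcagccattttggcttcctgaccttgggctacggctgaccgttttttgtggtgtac

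ATP5F1A held 1 match, an ETS and GABP core on the opposite strand at 49 to 42 bases before the start. COX8A held 1 such match, also on the opposite strand, at 19 to 12 bases before the start. COX5B held 3 matches, an NRF1 core on the opposite strand at 136 to 129 bases before the start and ETS and GABP cores at 37 to 30 bases before it and across it. ATP5MG held 0. Among the 36 members with a window in RefSeq, 15 held a match to 1 or more of the 3 motifs, or 41.7%, where 9.95% of all 27305 genes with a window did. NRF1 cores were in 7 members (19.4% against 3.68%), ETS and GABP cores in 9 (25% against 4.95%) and YY1 cores in 2 (5.56% against 2.14%), at a median GC content of 58.7% in both sets. NRF1 and GABP are known activators of respiratory chain genes. A match is a string of letters and not a measured binding site.

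In complex III, 5 of 10 members were lower in PARP1-KO cells with DMSO, and 1 of these 5, UQCR10, kept its call without the 3 tilted WT libraries. UQCR11 had a log2 fold change of -0.88, UQCRB, which helps to form the ubiquinone site, had -0.79, and UQCR10, a small subunit beside cytochrome c1, had -0.77. UQCRC1, a core protein on the matrix side, had -0.52. The subunits that carry the electrons did not pass the test. CYC1, cytochrome c1, had 0.17 (adjusted p = 0.427, edgeR), and the Rieske iron-sulfur protein UQCRFS1 had -0.18 (adjusted p = 0.445, edgeR). The other core protein, UQCRC2, had 0.17 with DMSO and 0.36 with Tpc, where it was the 1 member called higher (adjusted p = 0.00895, edgeR). With Tpc it was at 190, 186, 169 and 178 CPM in WT and 221, 214, 242 and 250 CPM in PARP1-KO libraries, which did not overlap. This call was lost under 6 of the 13 settings and in each of 8 fits that left out 1 library.

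UQCR10 and UQCRB were each called lower in 3 treatments. UQCR10 was at 135, 122.8, 96.0 and 92.9 CPM in untreated WT and at 54.4, 66.1, 65.7 and 66.9 CPM in untreated PARP1-KO libraries, with no overlap, and was called lower in untreated, DMSO and Tpc cells (-0.82, -0.77 and -0.64). Exons of UQCR10 overlap a long noncoding RNA on the other strand over 24.5% of their bases, so its counts are uncertain. UQCRB was called in untreated and DMSO cells and with both compounds (-0.68, adjusted p = 0.00878, edgeR). The call with both compounds held under 6 of 13 settings and in 2 of 8 fits that left out 1 library. Its untreated WT CPM were 259, 145, 285 and 144, with the tilted replicates 1 and 3 above the others, and its PARP1-KO CPM 113, 115.8, 103.2 and 103.9. Its annotated transcript of 8459 bases is the longest of the 39 better expressed members.

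In complex IV, 6 of 13 tested members were lower with DMSO and 6 in untreated cells. Without the tilted libraries 3 of these kept the call with DMSO, COX7A2, COX6C and COX8A, and 1 in untreated cells, COX8A. With DMSO the values ran from -1.09 for COX8A to -0.50 for COX7A2L, and they included COX5B at -0.83, COX6C, a small membrane subunit, at -0.75 and COX7A2 at -0.53. COX4I1, a nuclear subunit that joins early in assembly, had -0.44 (adjusted p = 0.0261, edgeR) and COX6A1 had -0.46 (adjusted p = 0.0755, edgeR). Reads of COX6A1 are the least certain, since pseudogene copies held 10.5% as many counts as the gene. Over all members, 159 such copies of 28 members held 0.198% as many counts as the members.

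In complex V, 8 of 20 members were lower with DMSO and 8 in untreated cells. Without the tilted libraries 5 of these kept the call with DMSO, ATP5F1A, ATP5MG, ATP5MF, ATP5F1E and ATP5PB, and 3 in untreated cells, ATP5F1A, ATP5MG and ATP5F1E. With DMSO the membrane subunits ATP5MF and ATP5MG had -0.93 and -0.91, the ε subunit of the central stalk, ATP5F1E, had -0.87, and ATP5PB, the b subunit of the peripheral stalk, had -0.54. ATP5MC3, 1 of 3 genes for the same c-ring protein, had the smallest called change at -0.40 (adjusted p = 0.0048, edgeR). Its partners ATP5MC1 and ATP5MC2 had -0.37 (adjusted p = 0.174, edgeR) and -0.48 (adjusted p = 0.0208, edgeR). The δ subunit ATP5F1D had -0.39 (adjusted p = 0.222, edgeR). ATP5IF1, the inhibitor that stops ATP hydrolysis by the enzyme, had -0.13 (adjusted p = 0.55, edgeR). Exons of ATP5F1E overlap TUBB1 on the other strand over 23.2% of their bases, and the counting strand was not given.

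The second comparison was treated against untreated cells of the same line, and all treatments of a line share its 4 untreated libraries. Since Tpc and OL9-119 were given with DMSO and untreated cells had none, compound and solvent are joined in these contrasts, and values against DMSO cells are given for WT with OL9-119 and with both compounds. In WT cells with 0.1% DMSO 0 of 44 members were called by edgeR or DESeq2, 0 had an unadjusted p below 0.05 (10.8% of all genes), and 0 of all genes were called (0%). Tpc gave 0 called members by edgeR (0.304% of all genes were lower) and 1 by DESeq2. With Tpc 19 members, or 43.2%, were lower at an unadjusted p below 0.05, against 7.32% of all genes. The lowest adjusted p were those of COX7A2 (-0.50, adjusted p = 0.0267, edgeR) and ATP5MC2 (-0.56, adjusted p = 0.0367, edgeR). The WT sum with Tpc was 5086 ± 516 CPM, 83.5% of untreated, and the libraries overlapped.

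In WT cells the sum over all members was lower with OL9-119. It fell to 4324 ± 459 CPM, 71% of the untreated 6093 ± 1045 CPM, and the libraries did not overlap. By complex the sums were 75%, 68.2% and 72.1% of untreated for complexes III, IV and V. The libraries overlapped for complexes III and IV and did not for complex V. Without the 3 tilted WT libraries these sums were 85.4%, 82.7% and 80.1% of untreated, against 2 untreated libraries and with the same overlaps. Of 44 members 15 were called lower, or 34.1%, against 0.833% of all genes and 2.25% of those at 10 CPM or more. They were 1 member of complex III, 4 of complex IV, 9 of complex V and CYCS. With both compounds the sum was 4363 ± 350 CPM, 71.6% of untreated, and 18 members (40.9%) were lower against 2% of all genes and 5.2% of those at 10 CPM or more, made up of 4, 4 and 10 members of complexes III, IV and V. Without the 3 tilted WT libraries the sums over all members were 81.8% of untreated with OL9-119 and 82.5% with both compounds, against 2 untreated libraries and without overlap. Medians over the 39 better expressed members were -0.58 in both cases, against 0.0045 and 0.0075 over all genes at 10 CPM or more. Without overlap, 18 members were lower with OL9-119 (2.87% of all genes) and 21 with both compounds (4.01%).

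These counts also depended on the libraries that stood apart. Without untreated replicate 1, 4 members were called with OL9-119 and 10 with both compounds, and without the 3 tilted WT libraries 1 and 6 were. In the fit without the tilted libraries 0.157% and 0.818% of all genes were lower. With DMSO-treated cells as the comparator 8 were called with OL9-119 and 15 with both compounds, and DMSO replicate 3 is itself tilted. Offsets for transcript length left 9 and 7. Apart from the fit without the tilted libraries, the share of all genes under these settings is not given, so those counts describe the members alone. ATP5MC3 was the 1 member called with OL9-119 under each of 13 settings, and 5 members were with both compounds, among them ATP5MC3, ATP5MC1, ATP5MG and COX6B1.

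ATP5MC3 was at 185, 211, 195 and 174 CPM in untreated WT, at 114.8, 124.6, 99.4 and 113 CPM with OL9-119 and at 116.1, 133, 117.2 and 113 CPM with both compounds. The treated libraries lay below all 4 untreated ones, with log2 fold changes of -0.76 ± 0.11 (adjusted p = 3.31e-06, edgeR) and -0.67 ± 0.11 (adjusted p = 1.47e-05, edgeR). With Tpc it was at 164, 180, 179 and 165 CPM. It was the 1 member that differed between both compounds and Tpc alone, at -0.52 (adjusted p = 0.00795, edgeR), where 0.0622% of all genes were lower and 14 members were lower at an unadjusted p below 0.05 (6.04% of all genes). That call held under 9 of 13 settings and in 1 of 8 fits that left out 1 library. ATP5MC1, another c-ring gene, was at 62.7, 46.2, 38.9 and 39.1 CPM untreated, at 25.3, 22.7, 26.3 and 22.7 CPM with OL9-119 (-0.95, adjusted p = 0.00177, edgeR) and at 20.1, 20.2, 26.3 and 23.3 CPM with both compounds (-1.06, adjusted p = 0.000204, edgeR). The third, ATP5MC2, was called in both, at -0.68 each. Neither ATP5MC2 call held without the 3 tilted WT libraries or with offsets for transcript length. With OL9-119 ATP5MC2 was called in 3 of 8 fits that left out 1 library, and with both compounds in 5. The ATP5MC1 call with OL9-119 was also lost without the tilted libraries and with these offsets.

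In complex IV COX7A2 had the largest change with OL9-119, from 203, 134, 195 and 120.9 CPM to 89.0, 92.8, 87.4 and 82.7 CPM (-0.89, adjusted p = 5.51e-06, edgeR). The groups did not overlap, but the tilted replicates 1 and 3 were above the other 2 untreated ones. COX6B1, which links the copies in the enzyme's dimer, was at 193, 141, 166 and 113 CPM untreated and at 67.5, 94.8, 85.3 and 68.1 CPM with both compounds (-0.95, adjusted p = 5.74e-05, edgeR). In complex III UQCRH was called with OL9-119 (-0.60) and UQCR11, UQCRH, UQCR10 and CYC1 with both compounds, from -0.94 for UQCR11 to -0.58 for CYC1. None of these complex III calls held without the 3 tilted WT libraries or with offsets for transcript length. With both compounds, UQCR11 was called in 2 of 8 fits that left out 1 library and CYC1 in 3. UQCR10 was called in 4 of these fits and UQCRH in all 8. With OL9-119 UQCRH was called in 3 of 8. CYCS fell with OL9-119 from 446, 259, 455 and 289 CPM to 196, 264, 212 and 205 CPM (-0.73, adjusted p = 0.00223, edgeR), where 1 treated library overlapped the untreated ones, and it was not called with both compounds (-0.33). Its 2 highest untreated values are those of the tilted replicates 1 and 3. Without the 3 tilted WT libraries CYCS was at 79.9% of untreated with OL9-119 and was not called. The call held in 4 of 8 fits that left out 1 library. ATP5F1A was not called in WT cells with OL9-119 or with both compounds.

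In PARP1-KO cells the same treatments gave 0 called members by edgeR and 0 by DESeq2. Of all genes 0% were lower in the DMSO and the combined treatment, 0.0138% after Tpc and 0.00346% after OL9-119. At an unadjusted p below 0.05, 0 members were lower with DMSO (1.05% of all genes), 2 with Tpc (3.23%), 8 with OL9-119 (18.2%, against 1.83% of all genes) and 4 with both compounds (2.47% of all genes). The sum with OL9-119 was 86.5% of untreated (4111 ± 189 against 4754 ± 224 CPM) and with both compounds 92.3%, in each case without overlap. For OL9-119 the 4 libraries also lay below the untreated ones in each complex, at 88%, 83.9% and 86.3% of the untreated sums of complexes III, IV and V. Of single members, 9 lay below without overlap after OL9-119 (1.96% of all genes) and 5 after both compounds (1.75%). ATP5MC3 had the lowest unadjusted p, 0.00301, with 132, 167, 157 and 157 CPM untreated and 112, 133, 121.2 and 118 CPM with OL9-119, which overlapped at 1 library (-0.34, interval of 2 SE from -0.55 to -0.12). Both compounds against Tpc alone also gave 0 called members (0% of all genes were lower), with 1 lower (2.03% of all genes) and 1 higher at an unadjusted p below 0.05.

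The third comparison was the difference between the lines in their response, taken as an interaction term. A call in WT and none in PARP1-KO cells does not show a difference, and 0 members passed this test by edgeR or DESeq2 for any of the 3 treatments. Of all genes 0.1% were called for Tpc, 0.0657% for OL9-119 and 0.27% for both compounds. At an unadjusted p below 0.05 there were 2 members for Tpc (7.41% of all genes), 13 for OL9-119 (29.5%, against 6.8% of all genes) and 21 for both compounds (47.7%, against 11.8%), each with a less negative response in PARP1-KO cells. For both compounds these 21 were 4 of complex III, 6 of complex IV and 11 of complex V. The largest difference among the c-ring genes was that of ATP5MC1, whose response to both compounds was 0.92 higher on the log2 scale in PARP1-KO cells (unadjusted p = 0.00178, adjusted p = 0.147, edgeR). For ATP5MC3 it was 0.51 (unadjusted p = 0.00172, adjusted p = 0.146, edgeR) and for COX6B1 0.74 (adjusted p = 0.172, edgeR). The Tpc dose differed between the lines, so dose and genotype cannot be told apart there, and OL9-119 alone was given at the same dose. The median difference over the 39 better expressed members was 0.32 for OL9-119 and 0.47 for both compounds, and without the 3 tilted WT libraries it was 0.08 and 0.19.

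**Figure D5:**
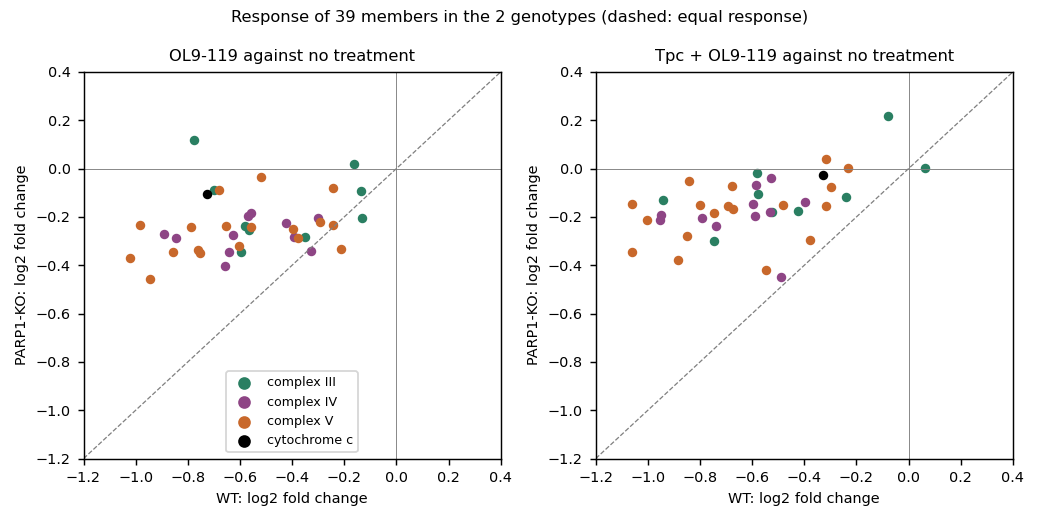
Log2 fold change against untreated cells in PARP1-KO (vertical) and WT (horizontal) for 39 members, with OL9-119 (left) and with both compounds (right), coloured by complex, with a dashed line of equal response. Most points lie above the line, and 0 members passed the test of that difference.

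Other genes of the same enzymes were read from lists, and with DMSO their counts stand beside 5.75% of all genes lower and 6.67% higher (14.3% and 15.5% at 10 CPM or more). In PARP1-KO against WT with DMSO, 5 of 6 mitochondrially encoded subunits of complexes III, IV and V were lower (median -1.17), from MT-CO1, the catalytic core of complex IV, at -1.001 to MT-CO2 at -1.33, and in untreated cells 5 of 6 (median -0.90). NDUFA4, a complex IV subunit outside the naming rule, was lower by the test in both (-1.06 and -1.02). Of 4 complex II subunits 2 were lower with DMSO, SDHD at -0.99, which lies on chromosome 11, and SDHA at -0.38. Of 28 complex IV assembly factors 8 were lower and 1 higher. The lowest was COA3, an early factor for MT-CO1, at -1.36, and SCO1, a copper carrier, was higher at 0.43. Of 9 complex III assembly factors 2 were higher and 0 lower, and of 6 for complex V ATPAF1 was lower at -0.60. Of 10 transcription factors and coactivators of respiratory chain genes 6 were higher (median 0.76) and 0 lower. They included GABPA at 0.90 and GABPB1 at 0.86, the 2 parts of GABP, YY1 at 0.81 and the coactivators PPARGC1B at 1.38 and PPRC1 at 0.85. The genes named from these lists were chosen after their values were seen. Without the 3 tilted WT libraries the DMSO counts were 5 of 6 lower for the mitochondrial genes, 2 of 4 for complex II, 7 lower and 2 higher of 28 for complex IV assembly, 0 of 9 for complex III assembly, 1 of 6 for complex V assembly and 6 of 10 higher for the transcription factors.

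In WT cells 0.833% of all genes were lower with OL9-119 and 2% with both compounds. With OL9-119, 5 of 6 mitochondrially encoded subunits were lower (median -0.61), NDUFA4 was at -0.79 and 2 of 28 complex IV assembly factors were lower, COA3 at -1.34 and HIGD1A at -0.79. None of the lists for complex II, for the assembly of complexes III and V or for transcription factors had a called gene there by edgeR. With both compounds 3 of 6 mitochondrially encoded subunits were lower and NDUFA4 was at -0.86. There GABPA was higher at 0.90 and PPRC1 at 0.58. Without the tilted libraries 2 of 6 mitochondrial genes were lower with OL9-119 and 1 of 6 with both compounds, and 0 of 10 transcription factors were called in either. ATP5PF, a member, overlaps GABPA on the other strand over 34.4% of its exonic bases.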

How the data were processed

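RNA-seq was done on 40 libraries, 4 for each of 10 groups of genotype and treatment. The authors deposited raw read counts per gene for all libraries in a table with Ensembl identifiers. Per the submitters' processing notes the tools were STAR 2.7.8, FastQC 0.11.9 and Picard 2.26.6 on hg38, and the strand used for counting was not given in the sources used here. Symbols came from GENCODE 44, which matched 57754 of 58395 identifiers. Per-sample columns outside these 40 samples numbered 0.

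Genes with at least 10 counts in sum (28922) were tested in R 4.3.3 with edgeR 4.0.16 (TMM, quasi-likelihood F test with the legacy option, 1 group per genotype and treatment), Benjamini-Hochberg adjustment over all genes tested, and a call at an adjusted p below 0.01. SEs were computed as the absolute fold change on the log2 scale over the root of the F statistic, and intervals span 2 SE to each side. CPM were scaled by TMM, and TPM used the length of the annotated canonical transcript. DESeq2 1.42.0 was an alternative. On counts simulated for PARP1-KO against WT with DMSO (28120 genes) edgeR called 64 of 100 genes changed by 1 on the log2 scale, 8 of 100 changed by 0.5 and 0 unchanged genes. These counts were drawn independently for each gene and without a length tilt, so they cannot show how the tilt affects calls.

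The members and gene lists were chosen with earlier results of these data known. Members named with values were CYC1, CYCS, UQCRFS1, UQCRC1, UQCRC2, the isoform pairs, ATP5F1A to ATP5F1E, ATP5IF1, the 3 c-ring genes, the lowest and highest called change of each complex in each comparison, and the highest and lowest level per length of each complex. Other alternatives were RLE normalization, no filter on low counts, the replicate block, the prefix of the library name as covariate, offsets for transcript length or GC content, library complexity as covariate, fits of the compared libraries alone, another threshold, DMSO cells as comparator, and each library left out in turn. Replicate numbers did not pair libraries: same-numbered libraries correlated at -0.273 to 0.586 in their deviations from the group means, and in none of the 15 comparisons were all 4 pairs above 0.1. Replicate libraries differed beyond sampling noise (chi-square per degree of freedom 2.33 to 59.3), so each was counted as 1 sample. No protein sequences were used here.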

Additional observations from a re-analysis of the deposited data

Results flagged for a closer look

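Of 360 groups of 4 libraries tested (CPM of the members named by the rule that reached a mean of 10 CPM, and each sum, in each group), 32 had 1 library far from the other 3, beyond Dixon's critical value at 95%, where chance gives about 1 in 20. WT OL9-119 replicate 2 was the highest library for 8 of them. Its sums were 5011 CPM over all members, 1064 for complex III, 1306 for complex IV and 2377 for complex V, and it had 147 CPM of COX6B1, 125.6 of COX7B, 49.6 of ATP5MF and 178 of UQCRH. PARP1-KO DMSO replicate 3 was the lowest for 5, with sums of 4260 CPM over all members and 1016 for complex IV, and 82.7 CPM of CYC1, 705 of ATP5F1B and 21.9 of ATP5F1D. WT DMSO replicate 3 was the highest for COX4I1 (335 CPM), COX6A1 (56.6) and UQCRB (290). Untreated WT replicate 1 was the highest for COX4I1 (264 CPM) and UQCRH (318).

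WT Tpc replicate 2 was the highest for CYCS (448 CPM) and ATP5PB (263). In WT cells with both compounds replicate 1 was the lowest for UQCRC1 (69.1 CPM) and ATP5MF (10.2), and replicate 2 was the lowest for COX7A2L (55.0) and the highest for ATP5F1C (121.6). WT OL9-119 replicate 1 was the lowest for COX8A (28.7 CPM). In PARP1-KO cells untreated replicate 1 was the lowest for UQCR10 (54.4 CPM), Tpc replicate 2 the lowest for ATP5F1C (109) and OL9-119 replicate 1 the lowest for the complex III sum (799) and ATP5MC1 (21.2). OL9-119 replicate 2 was the highest for COX4I1 (161 CPM), and with both compounds replicate 1 was the highest for COX8A (23.4) and COX6C (63.3).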

How the results depend on the processing

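Counts of members called in either direction moved by over 1.5 times as follows, and the cause was not tested. Shares of all genes called under each setting are not given beside them, so the counts describe the members alone. For PARP1-KO against WT with DMSO (19) they were 9 without the 3 WT libraries of most negative length slope, 6 with library complexity as covariate, 12 with length offsets and 5 with a fit of the compared libraries alone. For untreated cells (17) they were 5 without the 3 libraries, 9 with complexity (8 lower) and 11 with the compared libraries alone. Length offsets gave 12 there (11 lower), which is within 1.5 times. For Tpc (6 called) they were 11 without the 3 libraries (10 lower), 10 with length and GC offsets (9 lower) and 10 with the compared libraries alone, and for OL9-119 (4) they were 8 without the 3 libraries, 8 with length and GC offsets and 7 at an adjusted p of 0.05, each with 1 higher. For both compounds the 3 called were lower, and with complexity as covariate 2 were higher and 1 lower. For WT cells with Tpc (0) they were 1 with DESeq2, 1 without a filter and 2 at 0.05. For WT cells with OL9-119 (15) they were 1 without the 3 libraries, 9 with length offsets, 9 with length and GC offsets, 8 against DMSO cells and 1 with the compared libraries alone. For WT cells with both compounds (18) they were 6 without the 3 libraries, 7 with length offsets, 9 with length and GC offsets, 5 with the compared libraries alone and 29 at 0.05. For both compounds against Tpc in WT cells (1) they were 2 without the 3 libraries and 0 with RLE normalization, without a filter, with GC offsets and with the compared libraries alone. Of the named members that were called, 0 had the opposite sign under any of these settings.

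With 1 library left out the counts ran from 7 to 23 (DMSO), 8 to 17 (untreated), 4 to 6 (Tpc), 2 to 4 (OL9-119) and 1 to 4 (both compounds) for PARP1-KO against WT. In WT cells they ran from 0 to 2 with Tpc, 4 to 21 with OL9-119, 10 to 25 with both compounds and 0 to 1 for both compounds against Tpc, and from 0 to 0 for DMSO. In PARP1-KO cells and for the differences between the lines they ran from 0 to 0. The lowest counts came without WT DMSO replicate 3 (7) and without untreated WT replicate 1 (8, 4 and 10), and the highest without untreated or DMSO replicate 4 of WT. The replicate block gave 19, 18, 6, 4 and 4 members for PARP1-KO against WT in the order DMSO, untreated, Tpc, OL9-119 and both compounds, 17 and 20 for WT cells with OL9-119 and with both compounds, 1 for both compounds against Tpc in WT cells and 0 elsewhere, although replicate numbers did not pair the libraries. Of the members called, 3 of 19 (DMSO), 5 of 17 (untreated), 4 of 6 (Tpc), 3 of 4 (OL9-119), 1 of 3 (both compounds), 1 of 15 (WT with OL9-119) and 5 of 18 (WT with both compounds) were called under each of 13 settings. In data simulated for PARP1-KO against WT with DMSO, with the depth of these libraries and their average spread at each level, 8 of 100 genes changed by 0.5 on the log2 scale were called. Genes were simulated independently and without a length tilt, so this does not give the rate for short members that move together.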
